A study of Homo sapiens with 6 samples.

Results

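The genes described are the expressed numbered zinc finger genes of the human lung cancer line H2122, compared between a SMARCA4 knockout and the parental line. They are the symbols made of ZNF, a number and at most 1 further letter whose mean over the 6 libraries was at least 5 CPM (a gene's share of the gene reads of its library, scaled to a common total). The genes were thus selected on their measured level, which kept 269 of 553 ZNF symbols and of 59050 symbols in all, so how strongly the genes are expressed is a description and not a finding. Both groups counted towards the mean, so a gene that is high in 1 group alone could pass through that group. This happened for 23 genes, of which 17 reached 5 CPM in the knockout alone and 6 in the parental group alone. Just inside the threshold, ZNF594, ZNF10 and ZNF16 averaged 5.003, 5.005 and 5.024 CPM, and just outside it ZNF460, ZNF235 and ZNF585B averaged 4.987, 4.981 and 4.891 CPM.

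The study has 3 RNA-seq libraries of H2122 cells labelled SMARCA4 knockout and 3 of parental H2122 cells, and every library came from vehicle-treated cells. The SMARCA4 protein is an ATPase that drives SWI/SNF complexes, which slide and evict nucleosomes. Nothing in the labels says that replicates came from separate cultures. P-values therefore cover the spread between these libraries alone, and that spread may be technical. The titles carry a further number that is 1 in all 3 knockout libraries and 1, 3 and 6 in the parental libraries. Its meaning is not stated, and if it marks a clone, the knockout was measured in 1 clone and clone and knockout cannot be told apart. In bulk RNA, fewer cells of a kind and less RNA per cell cannot be told apart.

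Zinc finger proteins of the C2H2 kind carry a row of small loops, each folded around a zinc ion by pairs of cysteines and histidines, and each loop reads a few bases of DNA. Many of these proteins in primates also carry a KRAB domain at the amino end, which binds the corepressor TRIM28 and through it the histone methyltransferase SETDB1. Such KRAB proteins are best known for silencing transposable elements and for keeping imprinted loci methylated. Their genes arose by tandem duplication and lie in long arrays, above all on chromosome 19. Other ZNF proteins have no KRAB domain and serve as promoter-binding factors, subunits of chromatin complexes, RNA-binding proteins or ribosome sensors.

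Among the 269 genes, 127 coded for a protein with a match to the KRAB pattern, 138 coded for a protein without a match, and 4 had no coding transcript in GENCODE 29 (ZNF204P, ZNF252P, ZNF271P and ZNF767P). The pattern required 7 of 9 conserved KRAB residues. It matched 60.7% of 509 numbered ZNF coding genes and 0.0839% of 19059 coding genes outside the zinc finger and KRAB symbol groups. A finger was counted as a cysteine pair 2 to 4 residues apart, 12 residues, then a histidine pair 3 to 5 residues apart. The median number of fingers was 11 in proteins with the KRAB pattern and 7.5 in those without it. ZNF185, ZNF703, ZNF503, ZNF330, ZNF720, ZNF839 and ZNF862 had no match to the finger pattern. In all, 84 of the 269 genes (31.2%) lay on chromosome 19.

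The promoters of 7 genes are shown, picked for the changes of these genes in the knockout. Whether the sequences bear on those changes was not tested. ZNF302, ZNF181 and ZNF792 are neighbours that rose together, ZNF548, ZNF44 and ZNF546 were the 3 largest rises, and ZNF525 was a large fall. Each is the RefSeq GRCh38.p14 sequence from 250 bases before to 50 bases after the gene's start, 5′ to 3′ on the gene's strand. The RefSeq start differs from that of the GENCODE 29 gene, whose coordinates are given elsewhere, by 12926 bases in ZNF546, where the window lies inside the GENCODE gene, by 180 bases in ZNF792, where it lies wholly upstream of it, and by 4 to 88 bases in the other 5. Capitals mark matches on either strand to 4 motifs: the motif bound by ZNF143 (ACTACA, 2 bases of any kind, then TCC); TGANTCA, bound by AP-1; CACCTG, an E-box bound by ZEB1; and GGGCGG, the GC box.
ZNF302 (chr19:34677428-34677727, plus strand): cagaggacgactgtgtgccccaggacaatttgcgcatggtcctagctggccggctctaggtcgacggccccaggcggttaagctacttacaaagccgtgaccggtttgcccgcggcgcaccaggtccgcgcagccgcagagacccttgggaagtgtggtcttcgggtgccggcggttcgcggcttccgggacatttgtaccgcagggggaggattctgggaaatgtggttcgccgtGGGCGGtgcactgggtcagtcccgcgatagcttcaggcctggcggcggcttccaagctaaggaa
ZNF181 (chr19:34733993-34734292, plus strand): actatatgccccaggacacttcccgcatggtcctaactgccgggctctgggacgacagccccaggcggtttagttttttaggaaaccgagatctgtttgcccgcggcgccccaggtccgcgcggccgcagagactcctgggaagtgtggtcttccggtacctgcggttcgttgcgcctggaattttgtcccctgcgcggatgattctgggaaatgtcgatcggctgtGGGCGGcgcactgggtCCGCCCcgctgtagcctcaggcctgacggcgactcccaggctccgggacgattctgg
ZNF792 (chr19:34964180-34964479, minus strand): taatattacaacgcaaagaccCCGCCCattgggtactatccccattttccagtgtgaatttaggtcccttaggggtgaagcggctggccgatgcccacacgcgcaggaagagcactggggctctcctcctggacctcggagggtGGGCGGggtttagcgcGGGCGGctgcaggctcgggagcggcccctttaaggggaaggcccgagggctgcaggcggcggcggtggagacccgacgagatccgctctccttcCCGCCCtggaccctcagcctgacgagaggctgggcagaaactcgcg
ZNF548 (chr19:57389604-57389903, plus strand): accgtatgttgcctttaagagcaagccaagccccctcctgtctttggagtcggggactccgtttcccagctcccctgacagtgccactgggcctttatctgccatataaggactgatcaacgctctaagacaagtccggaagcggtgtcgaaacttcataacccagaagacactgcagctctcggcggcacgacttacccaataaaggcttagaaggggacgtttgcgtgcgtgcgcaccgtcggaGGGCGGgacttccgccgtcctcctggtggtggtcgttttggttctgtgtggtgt
ZNF44 (chr19:12294834-12295133, minus strand): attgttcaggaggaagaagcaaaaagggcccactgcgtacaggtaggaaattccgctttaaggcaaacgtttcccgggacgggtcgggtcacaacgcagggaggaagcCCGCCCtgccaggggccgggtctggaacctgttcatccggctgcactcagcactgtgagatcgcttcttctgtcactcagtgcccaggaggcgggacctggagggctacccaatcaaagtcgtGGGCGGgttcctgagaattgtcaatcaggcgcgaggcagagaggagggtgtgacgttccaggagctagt
ZNF546 (chr19:39996810-39997109, plus strand): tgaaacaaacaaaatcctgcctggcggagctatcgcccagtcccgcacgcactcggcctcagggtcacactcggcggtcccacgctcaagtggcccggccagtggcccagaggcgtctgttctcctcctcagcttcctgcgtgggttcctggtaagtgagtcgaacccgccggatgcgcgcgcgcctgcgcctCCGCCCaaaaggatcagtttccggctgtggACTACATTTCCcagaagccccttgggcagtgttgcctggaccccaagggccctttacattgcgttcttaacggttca
ZNF525 (chr19:53365455-53365754, plus strand): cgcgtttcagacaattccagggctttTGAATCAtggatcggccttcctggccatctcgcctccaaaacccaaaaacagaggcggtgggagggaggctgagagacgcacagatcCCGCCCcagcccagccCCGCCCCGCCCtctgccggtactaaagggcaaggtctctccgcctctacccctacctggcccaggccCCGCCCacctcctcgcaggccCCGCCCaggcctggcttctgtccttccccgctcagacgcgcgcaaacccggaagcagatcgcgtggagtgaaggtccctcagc

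The promoters of the neighbours ZNF302 and ZNF181 were alike over their whole length, with 235 identical bases in 312 aligned columns (75.3%). The other pairs among the 7 shared between 47% and 53.6% of columns. Promoters were matched for 228 of the 269 genes. Those without a match include ZNF462, ZNF165 and ZNF710, which were among the largest falls, and ZNF30, a neighbour of ZNF792. The counts by direction below thus cover only part of the rising and falling genes. The matched promoters held a median of 24 CG pairs in 300 bases, against 14 over all 27305 promoters. The ZNF143 motif was found in 31 of the 228 (13.6%) and in 2.09% of all promoters. Among genes that rose in the knockout, 7 of 36 matched promoters held it (19.4%), and among those that fell, 0 of 12. Of the 7 promoters shown, ZNF546 had this motif. The GC box stood in 65.8% of the 228 promoters and in 44.6% of all promoters. The E-box was found in 18% and 20.6%, and the AP-1 motif in 6.14% and 7.76%. The AP-1 motif was found in 3 of the 12 promoters of falling genes, those of ZNF525, ZNF185 and ZNF92, and in 0 of 36 of rising genes. A match in these windows is a description of the letters and not a binding site.

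Reads assigned to genes numbered 55120937 to 59917980 in the 6 libraries. The limit set by a count of 3 lay between 0.0501 and 0.0544 CPM, which covers counting error only. Levels from here on are CPM after TMM scaling, a scaling of each library that sets most genes level, and a log2 fold change is that of the knockout over the parental libraries. SMARCA4 (chromosome 19, 10960825 to 11079426, plus strand, GRCh38) had 20.7, 19.3 and 24.9 CPM in the knockout libraries, against 232, 214 and 335 CPM in the parental libraries (log2 fold change -3.59, SE 0.22, adjusted p = 0.000176, edgeR quasi-likelihood test), and every library therefore matched its label. Epithelial markers stood lower in the knockout, where KRT7, KRT8, KRT18, KRT19, EPCAM and CDH1 summed to 3160 to 3420 CPM, against 6930 to 7700 CPM in the parental libraries. All 6 of them were lower in every knockout library than in every parental library. The haematopoietic list (PTPRC, CD79A, CD3E, LYZ, CD14) summed to 0.436 to 0.729 CPM in the knockout and 1.37 to 1.86 CPM in the parental group, with PTPRC at 0 in all 6 libraries. The endothelial list (PECAM1, CDH5, VWF, KDR) summed to 0.907 to 1.4 CPM in the knockout and 0.51 to 0.56 CPM in the parental group. The fibroblast list (COL1A1, COL1A2, COL3A1, DCN, LUM) summed to 53.2 to 57.9 CPM in the knockout and 39.2 to 110.0 CPM in the parental group. The members of this list went both ways. LUM, which codes for lumican, stood at 25 to 29.6 CPM in the knockout and 0.352 to 0.385 CPM in the parental group, whereas the collagen gene COL1A1 stood lower in the knockout, at 22.1 to 25.5 CPM against 38.6 to 109 CPM in the parental group. The part of these marker differences in the results on ZNF genes was not tested.

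In parental replicate 3 the ZNF genes stood lower than in the other 5 libraries, and the library as a whole also lay apart. On the second principal component of all tested genes, which held 19% of the variance, it lay at 83.4, against -42.3 and -46.1 for the other parental libraries. The summed level of the 269 genes was 7502, 7519 and 7434 CPM in the knockout libraries, against 7764, 7595 and 6215 CPM in the parental libraries. Parental replicate 3 is thus the low library, while parental replicates 1 and 2 stood above the knockout. For 76.6% of the ZNF genes, parental replicate 3 was the lowest of the 3 parental libraries, against 45.4% of all genes at 5 CPM or more. Relative to each gene's mean over the 6 libraries, the median ZNF gene stood at 0.07, 0.07 and 0.08 on the log2 scale in the knockout libraries and at 0.02, 0.01 and -0.26 in the parental libraries. The median coefficient of variation of a ZNF gene was 4.7% among the knockout libraries and 15% among the parental libraries, and 3.84% between parental replicates 1 and 2 alone. The main counts of rising and falling genes below are therefore also given without parental replicate 3.

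**Figure D1:**
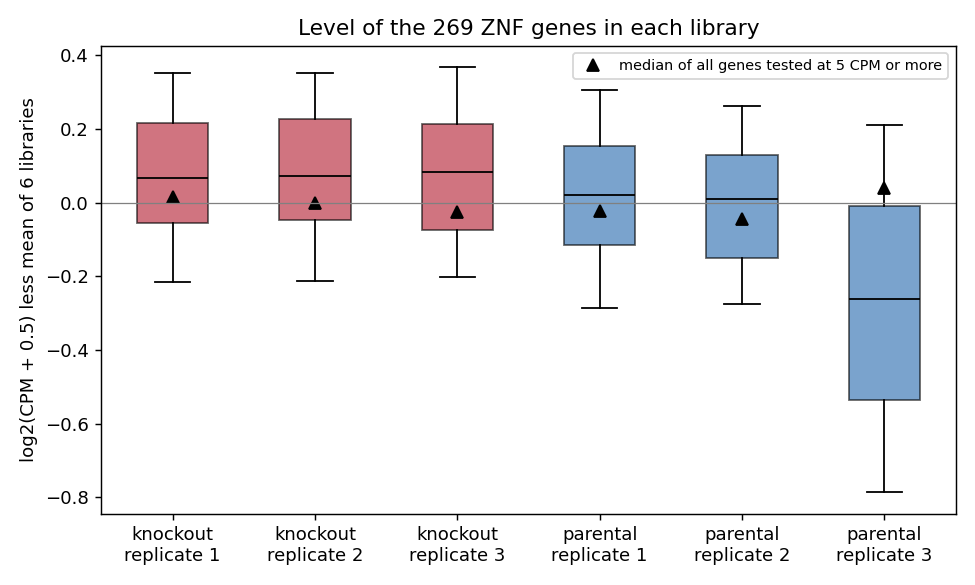
Level of the 269 ZNF genes in each library, as log2(CPM + 0.5) less the gene's mean over the 6 libraries. The boxes span the interquartile range with the median as a line, whiskers span the 10th to 90th percentiles, and triangles give the median of all tested genes at 5 CPM or more. The ZNF median is -0.26 in parental replicate 3 and between 0.01 and 0.08 in the other 5 libraries.

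In the knockout, 41 of the 269 ZNF genes rose (15.2%), 19 fell (7.06%) and 209 did not pass the test, with p-values from edgeR's quasi-likelihood test adjusted over all 17809 genes tested and a threshold of 0.05. Of all genes tested, 13.3% rose and 14.3% fell, and of the 10980 tested genes at 5 CPM or more, 12.4% rose and 14% fell. The ZNF share that rose was thus near the background, and the share that fell was lower than it; the difference between these shares was not tested. The median log2 fold change of knockout over parental was 0.15 for the ZNF genes, against 0.02 for all genes tested and -0.03 for those at 5 CPM or more. Without parental replicate 3, 78 ZNF genes rose (29%) and 77 fell (28.6%), against 34.8% and 35.8% of genes at 5 CPM or more and 30.8% each way of all genes tested, and the ZNF median was 0.03. The excess of rising over falling ZNF genes thus depended on parental replicate 3. All 41 rising and all 19 falling genes passed in the same direction without it, and 38 of the 269 genes, none of them among those 60, changed sign.

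Most changes were small. The log2 fold change lay within 0.5 of 0 for 191 genes (71%), against 66.9% of all genes at 5 CPM or more. Of the 60 genes that passed, 15 changed at least 2-fold, 9 rising and 6 falling, which is 5.58% of the 269 genes against 11.4% of genes at 5 CPM or more. The 41 rising genes had a median log2 fold change of 0.78, and the lowest was 0.46. The 19 falling genes had a median of -0.84, and the smallest fall was -0.33. The groups did not overlap for 149 ZNF genes (55.4%), near the 50.6% of all genes at 5 CPM or more. Among the rising genes, 11 had entered the set through the knockout alone, and among the falling genes, 4 through the parental group alone. For these genes the threshold and the difference are not independent.

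**Figure D2:**
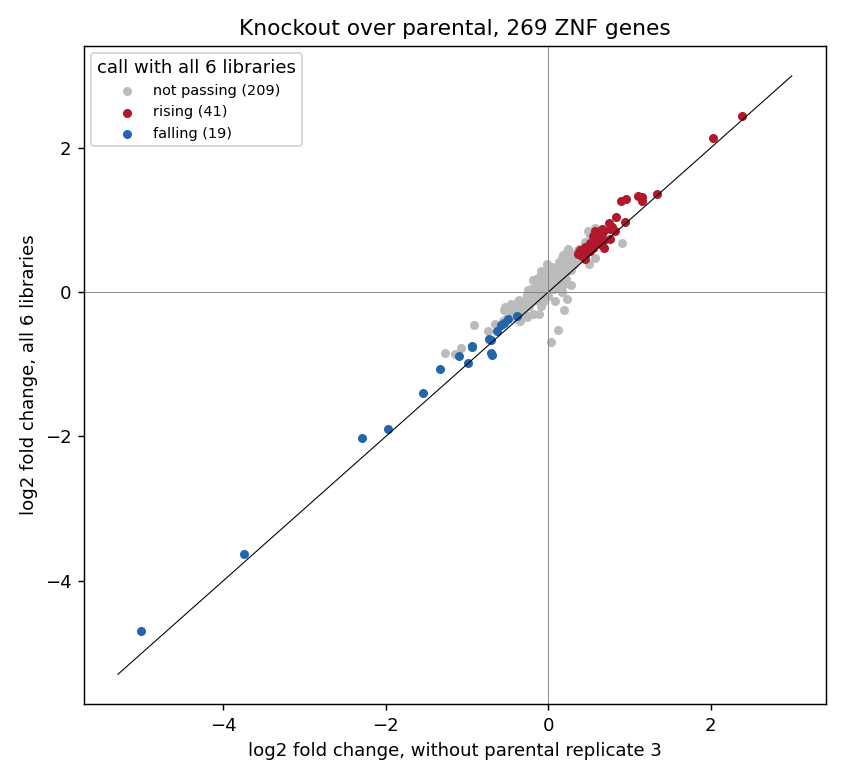
Log2 fold change of knockout over parental for the 269 ZNF genes, without parental replicate 3 on the horizontal axis and with all 6 libraries on the vertical axis; colours give the call with all 6 libraries (41 rising, 19 falling, 209 not passing) and the line marks equality. The called genes keep their sign, and most genes that did not pass lie above the line.

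Of the 5 largest falls, 4 were of genes without a KRAB pattern. ZNF462, ZNF165 and ZNF525 reached 5 CPM in the parental group alone, with knockout means of 0.672, 1.28 and 2.13 CPM before TMM scaling. The same holds for ZNF296, with a knockout mean of 3.96 CPM. For these genes a low knockout level and a large fall were partly set by how the genes were chosen. ZNF462 (chromosome 9, 106863097 to 107013634, plus strand) codes for a large nuclear protein with 33 fingers, the highest number among the 269 genes, and loss of 1 of its copies causes a developmental syndrome in humans. It had 0.760, 0.726 and 0.530 CPM in the knockout libraries, against 23.2, 18.9 and 10.4 CPM in the parental libraries, a fall of 26.0-fold (log2 fold change -4.70, SE 0.37, adjusted p = 0.000398). Its parental libraries differed among themselves more than 2-fold, and every one of them stood far above every knockout library. The log2 fold change was -5.02 without parental replicate 3. ZNF165 (chromosome 6, 28080975 to 28089563, plus strand), a cancer-testis gene that is normally transcribed in testis, had 1.52, 0.980 and 1.32 CPM in the knockout libraries, against 14.7, 18.6 and 14.03 CPM in the parental libraries (log2 fold change -3.63, SE 0.23, adjusted p = 0.000182). The knockout libraries retained between 54 and 86 reads of it and the parental libraries between 798 and 1112. ZNF710 (chromosome 15, 90001392 to 90082206, plus strand) had 14.7, 14.7 and 13.2 CPM in the knockout libraries, against 53.8, 54.02 and 50.4 CPM in the parental libraries (log2 fold change -1.89, SE 0.10, adjusted p = 9.91e-05). Its libraries were tight within each group, and 16.1% of its exon bases are shared with other genes, among them its antisense gene ZNF710-AS1. Reads in the shared bases cannot be told apart without strand. ZNF185 (chromosome X, 152914442 to 152973480, plus strand), which despite its name codes for a LIM domain protein of the actin cytoskeleton, had 89.4, 91.3 and 91.2 CPM in the knockout libraries, against 249, 264 and 208 CPM in the parental libraries (log2 fold change -1.40, SE 0.12, adjusted p = 0.000482). With a knockout mean of 18.8 CPM per kilobase of exon and a parental mean of 49.9, it was among the 3 ZNF genes with the highest level per length.

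ZNF525 (chromosome 19, 53365693 to 53392217, plus strand), a KRAB gene of chromosome 19, had 1.98, 2.54 and 1.86 CPM in the knockout libraries, against 9.42, 10.7 and 5.72 CPM in the parental libraries (log2 fold change -2.02, SE 0.28, adjusted p = 0.00352). The other 3 ZNF genes within its array did not pass, although 1 of them, ZNF845, fell without parental replicate 3. ZNF431 and ZNF714 are neighbours on the short arm of chromosome 19, and both fell. ZNF431 (chromosome 19, 21142024 to 21196053, plus strand) had 10.02, 10.7 and 9.70 CPM in the knockout libraries, against 25.02, 24.2 and 14.4 CPM in the parental libraries (log2 fold change -1.06, SE 0.23, adjusted p = 0.0170). ZNF714 (chromosome 19, 21082159 to 21125270, plus strand) had 9.42, 9.98 and 9.80 CPM in the knockout libraries, against 15.2, 15.5 and 21.7 CPM in the parental libraries (log2 fold change -0.84, SE 0.17, adjusted p = 0.0138). In parental replicate 3 the pair parted, with ZNF431 at its lowest parental level and ZNF714 at its highest. These are close relatives within 1 array, so reads that fit both may have been split between them or dropped. ZNF114 had 7.55, 7.84 and 7.75 CPM in the knockout libraries, against 16.8, 15.2 and 10.6 CPM in the parental libraries (log2 fold change -0.88, adjusted p = 0.0182). ZNF296, which in mouse promotes reprogramming to pluripotency, had 3.89, 4.01 and 3.94 CPM in the knockout libraries, against 6.66, 5.73 and 9.29 CPM in the parental libraries (log2 fold change -0.87, adjusted p = 0.0256). The calls of ZNF431 and ZNF114 were lost without any 1 library other than parental replicate 3, at an adjusted p of at most 0.0784 and 0.0829. That of ZNF714 was lost without any 1 knockout library (at most 0.0723), and that of ZNF296 without any 1 knockout library or parental replicate 1 (at most 0.105).

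The 5 largest rises were all of KRAB genes of chromosome 19 (ZNF548, ZNF44, ZNF546, ZNF333 and ZNF792). All 5 reached 5 CPM in the knockout alone, with parental means of 1.61, 1.93, 3.30, 4.44 and 3.51 CPM before TMM scaling, so a low parental level and a large rise were partly set by how the genes were chosen. ZNF548 (chromosome 19, 57389850 to 57402992, plus strand) had 8.50, 8.84 and 8.98 CPM in the knockout libraries, against 1.66, 1.59 and 1.58 CPM in the parental libraries, a rise of 5.44-fold (log2 fold change 2.44, SE 0.14, adjusted p = 0.000107). All 3 parental libraries, replicate 3 included, stood close together. ZNF44 (chromosome 19, 12224686 to 12294887, minus strand) had 9.32, 8.62 and 7.57 CPM in the knockout libraries, against 1.96, 2.04 and 1.79 CPM in the parental libraries, a rise of 4.40-fold (log2 fold change 2.14, SE 0.16, adjusted p = 0.000276). ZNF546 (chromosome 19, 39984134 to 40021041, plus strand) had 7.97, 9.06 and 8.58 CPM in the knockout libraries, against 3.29, 3.25 and 3.39 CPM in the parental libraries (log2 fold change 1.36, SE 0.13, adjusted p = 0.000785). The log2 fold changes of these 3 genes shifted by at most 0.06, 0.10 and 0.06 in the 13 alternatives tried. ZNF333 (chromosome 19, 14689801 to 14733746, plus strand) had 10.6, 11.02 and 11.8 CPM in the knockout libraries, against 4.87, 5.11 and 3.29 CPM in the parental libraries (log2 fold change 1.33, SE 0.20, adjusted p = 0.00457). ZNF558 (chromosome 19, 8806170 to 8832328, minus strand), which in human neural progenitors represses a mitochondrial quality gene, had 30.5, 30.4 and 35.1 CPM in the knockout libraries, against 15.6, 16.5 and 16.8 CPM in the parental libraries (log2 fold change 0.97, SE 0.11, adjusted p = 0.00146). Here too the parental libraries were close to each other and lay below all 3 knockout libraries. ZNF10 (chromosome 12, 133130575 to 133159465, plus strand), also called KOX1 and the source of the KRAB domain used in engineered repressors, had 6.08, 6.90 and 7.17 CPM in the knockout libraries, against 3.24, 4.05 and 2.50 CPM in the parental libraries (log2 fold change 1.04, SE 0.21, adjusted p = 0.0144), and it too was in the set through the knockout alone. Leaving out knockout replicate 2, knockout replicate 3 or parental replicate 1 ended its call (adjusted p at most 0.0637).

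**Figure D3:**
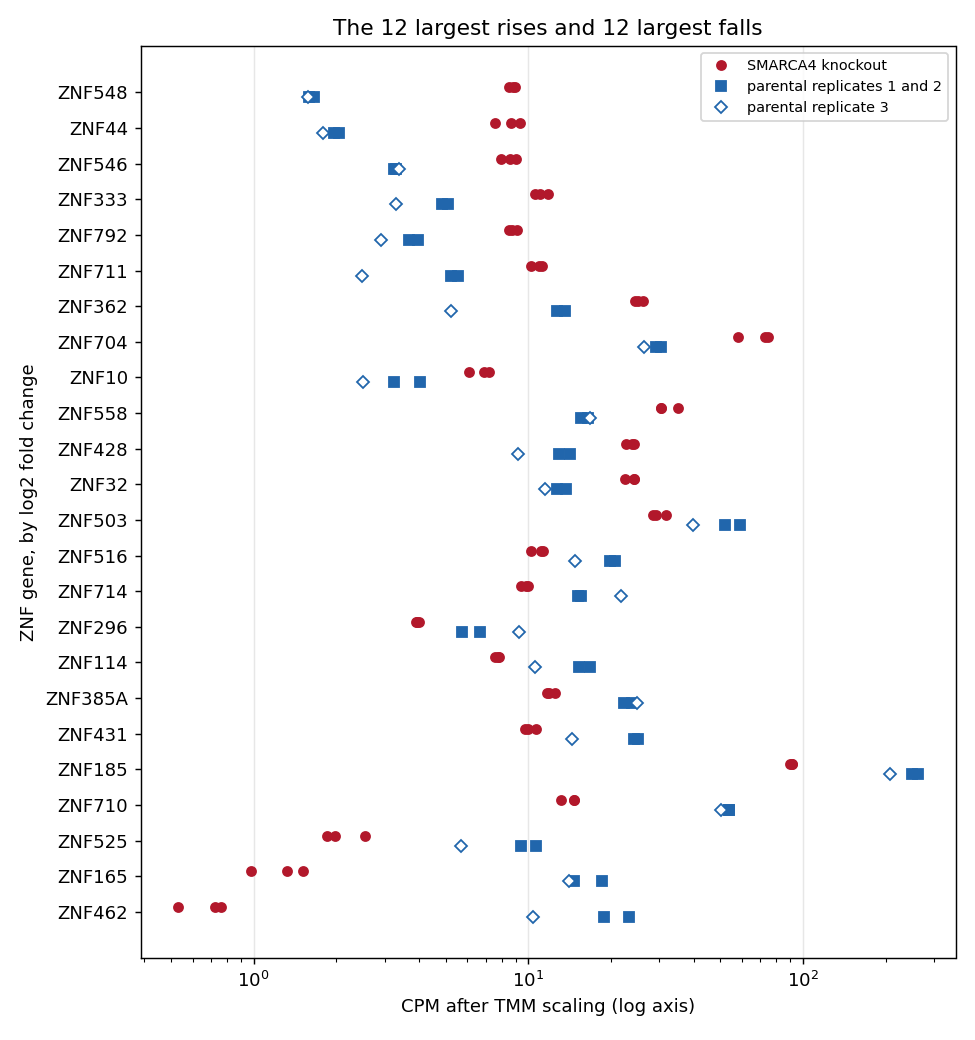
CPM after TMM scaling, on a log axis, of the 12 ZNF genes with the largest rise (top) and the 12 with the largest fall (bottom) among those that passed the test without overlap between groups; each point is 1 library, and parental replicate 3 is the open diamond. ZNF462 and ZNF165 have group means more than 10-fold apart, while those of ZNF503 and ZNF516 differ by less than 2-fold.

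Some of the larger rises were of genes without a KRAB pattern. ZNF704 (chromosome 8, 80628451 to 80874781, minus strand), a paralogue of ZNF395, had 73.03, 74.6 and 58.3 CPM in the knockout libraries, against 30.3, 29.2 and 26.3 CPM in the parental libraries (log2 fold change 1.26, SE 0.13, adjusted p = 0.00116). ZNF711 (chromosome X, 85244032 to 85273362, plus strand), which binds CpG island promoters together with the demethylase PHF8 and is mutated in X-linked intellectual disability, had 10.9, 10.2 and 11.2 CPM in the knockout libraries, against 5.55, 5.22 and 2.48 CPM in the parental libraries (log2 fold change 1.29, SE 0.31, adjusted p = 0.0256). ZNF362 (chromosome 1, 33256545 to 33300719, plus strand) had 24.5, 25.2 and 26.2 CPM in the knockout libraries, against 13.6, 12.7 and 5.22 CPM in the parental libraries (log2 fold change 1.27, SE 0.35, adjusted p = 0.0406). In both ZNF711 and ZNF362, parental replicate 3 lay well below the other parental libraries, and without it the log2 fold changes were 0.96 and 0.90. ZNF711 also reached 5 CPM in the knockout alone, with a parental mean of 4.45 CPM before TMM scaling. Its rise was thus partly set by how the genes were chosen. The call of ZNF711 was lost without any 1 knockout library (adjusted p at most 0.0884), and that of ZNF362 without any 1 library other than parental replicate 3 (at most 0.12). ZNF428 had 23.8, 22.7 and 24.3 CPM in the knockout libraries, against 14.2, 12.96 and 9.22 CPM in the parental libraries (log2 fold change 0.96, adjusted p = 0.0102). ZNF32 had 24.2, 24.3 and 22.5 CPM in the knockout libraries, against 13.8, 12.8 and 11.5 CPM in the parental libraries (log2 fold change 0.90, adjusted p = 0.00252). Of their exon bases, 27.6% and 38.6% are shared with other genes, among them SRRM5 and ZNF32-AS2 on the opposite strand. Reads in the shared bases cannot be told apart without strand.

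The genes can also be read by the role of their proteins. As background for every role list, here and in the next paragraphs, 12.4% of tested genes at 5 CPM or more rose and 14% fell. Without parental replicate 3 these shares were 34.8% and 35.8%. The lists are short, and their counts were not tested against this background. Of 13 ZNF genes whose proteins are partners of chromatin complexes or corepressors, 2 rose, 3 fell and 8 did not pass, with a median of -0.02; without parental replicate 3, 3 rose and 7 fell. Besides ZNF462 and ZNF711, the list includes ZNF516 (chromosome 18, 76358190 to 76495190, minus strand), which joins the CtBP corepressor complex and in mouse promotes the brown fat program. It had 11.2, 11.3 and 10.2 CPM in the knockout libraries, against 20.6, 19.8 and 14.8 CPM in the parental libraries (log2 fold change -0.75, SE 0.16, adjusted p = 0.0165), a call lost without any 1 library other than parental replicate 3 (adjusted p at most 0.0794). ZNF687, ZNF592 and ZNF532 form a complex with the acetyl-lysine reader ZMYND8; they are named after their values were seen. ZNF687 had 57.6, 56.6 and 58.8 CPM in the knockout libraries, against 81.4, 81.7 and 70.8 CPM in the parental libraries (log2 fold change -0.43, SE 0.10, adjusted p = 0.0204), a call lost without any 1 library other than parental replicate 3 (adjusted p at most 0.113). ZNF592 had 163, 159.7 and 154 CPM in the knockout libraries, against 167, 161 and 154 CPM in the parental libraries (log2 fold change -0.02, adjusted p = 0.912). ZNF532 had 44.6, 41.8 and 45.3 CPM in the knockout libraries, against 61.6, 62.8 and 31.4 CPM in the parental libraries (log2 fold change -0.24, adjusted p = 0.549), with parental replicate 3 below and the other parental libraries above all knockout libraries; without that library it passed, at -0.55. ZMYND8 itself had 19.99, 20.7 and 19.5 CPM in the knockout libraries, against 42.2, 39.4 and 64.8 CPM in the parental libraries (log2 fold change -1.28, SE 0.21, adjusted p = 0.00601). ZNF618, a binding partner of the DNA methylation reader UHRF2 and also named after its value was seen, had 64.6, 65.2 and 62.6 CPM in the knockout libraries, against 49.4, 46.4 and 37.4 CPM in the parental libraries (log2 fold change 0.53, SE 0.13, adjusted p = 0.0250), a call lost without any 1 knockout library or parental replicate 2 (adjusted p at most 0.0988). UHRF2 had 77.9, 81.8 and 86.2 CPM in the knockout libraries, against 52.3, 48.8 and 41.3 CPM in the parental libraries (log2 fold change 0.79, SE 0.12, adjusted p = 0.00466). In these data ZNF687 and ZMYND8 were both lower in the knockout, and ZNF618 and UHRF2 both higher.

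Of 10 ZNF genes that act on RNA, ribosomes or the spindle, 0 rose, 2 fell and 8 did not pass by edgeR's test, with a median of -0.12. At an unadjusted p under 0.05, 0 rose and 3 fell, and DESeq2 and limma-voom gave 0 rising, with 4 and 2 falling. Without parental replicate 3, 1 of the 10 rose and 4 fell. ZNF385A (chromosome 12, 54369133 to 54391298, minus strand), an RNA-binding protein that also modulates p53, had 12.5, 11.7 and 11.9 CPM in the knockout libraries, against 23.8, 22.4 and 24.97 CPM in the parental libraries (log2 fold change -0.98, SE 0.11, adjusted p = 0.00123). The groups were clearly apart and each was tight. ZNF598 (chromosome 16, 1997654 to 2009823, minus strand), the ubiquitin ligase that recognises collided ribosomes, had 100.1, 99.1 and 108 CPM in the knockout libraries, against 138, 140.1 and 119.6 CPM in the parental libraries (log2 fold change -0.37, SE 0.11, adjusted p = 0.0433). Its call was lost with upper-quartile factors, without a low-count filter and with a filter of 1 CPM in 3 libraries. It was also lost with replicate number as a block, and without any 1 library other than parental replicate 3 (adjusted p at most 0.186). ZNF106, an RNA-binding protein and 1 of the most abundant ZNF messages, had 194, 186 and 161 CPM in the knockout libraries, against 202, 186 and 171 CPM in the parental libraries (log2 fold change -0.05, adjusted p = 0.795, 95% interval -0.34 to 0.24), and the groups overlapped; without parental replicate 3 the log2 fold change was -0.16 and did not pass.

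Of 8 ZNF genes tied to differentiation or cancer, 2 rose, 4 fell and 2 did not pass, with a median of -0.72; without parental replicate 3, 2 rose and 5 fell. ZNF165, ZNF185 and ZNF704 are described above. ZNF503 (chromosome 10, 75397830 to 75401906, minus strand), a corepressor of the NET family, had 31.8, 29.2 and 28.4 CPM in the knockout libraries, against 58.9, 52.01 and 39.7 CPM in the parental libraries (log2 fold change -0.75, SE 0.16, adjusted p = 0.0178), a call lost without any 1 library other than parental replicate 3 (adjusted p at most 0.0836). Its paralogue ZNF703, named after its values were seen, had 13.6, 14.1 and 13.4 CPM in the knockout libraries, against 33.7, 30.1 and 9.85 CPM in the parental libraries (log2 fold change -0.84, adjusted p = 0.206), and it passed without parental replicate 3, at -1.27. There parental replicates 1 and 2 lay above and parental replicate 3 below all knockout libraries. ZNF395, likewise, had 28.7, 26.8 and 27.1 CPM in the knockout libraries, against 39.9, 40.02 and 33.6 CPM in the parental libraries (log2 fold change -0.46, adjusted p = 0.0266), the opposite direction to its paralogue ZNF704. Its call was lost without any 1 library other than parental replicate 3 (adjusted p at most 0.131), and the difference between the paralogues was not tested. ZNF469, mutated in brittle cornea syndrome, had 82.3, 84.1 and 84.3 CPM in the knockout libraries, against 50.98, 49.6 and 51.2 CPM in the parental libraries (log2 fold change 0.72, SE 0.08, adjusted p = 0.00152), and all 3 libraries of each group lay within 2 CPM of each other.

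Of 8 promoter-binding factors without a KRAB domain, 0 rose and 0 fell by edgeR's test, with a median of 0.08. At an unadjusted p under 0.05, 1 rose and 1 fell, DESeq2 called the same numbers, and limma-voom called 1 rising and 0 falling. Without parental replicate 3, 1 rose and 2 fell. ZNF24 (chromosome 18, 35332212 to 35345482, minus strand), the most abundant of the list, had 78.2, 82.9 and 73.02 CPM in the knockout libraries, against 94.2, 85.5 and 68.4 CPM in the parental libraries (log2 fold change -0.08, adjusted p = 0.701, 95% interval -0.43 to 0.26), and it passed without parental replicate 3, at -0.25. ZNF143, whose motif is found in ZNF promoters above, had 18.4, 17.3 and 16.8 CPM in the knockout libraries, against 22.2, 20.7 and 26.2 CPM in the parental libraries (log2 fold change -0.40, adjusted p = 0.0636), and ZNF219 had 84.6, 81.5 and 85.7 CPM in the knockout libraries, against 53.95, 54.7 and 27.03 CPM in the parental libraries (log2 fold change 0.89, adjusted p = 0.0550); both are named after their values were seen. Neither passed with all 6 libraries, although the groups did not overlap, and both passed without parental replicate 3, at -0.34 and 0.58. Of 7 repressors of retroelements or guardians of imprints, 2 rose, 0 fell and 5 did not pass, with a median of 0.33. At an unadjusted p under 0.05, by DESeq2 and by limma-voom, 0 fell as well. In the fit without parental replicate 3, 4 rose and 1 fell. ZNF445 (chromosome 3, 44431720 to 44477670, minus strand), which keeps imprinted loci methylated, had 45.6, 46.04 and 45.6 CPM in the knockout libraries, against 32.2, 29.6 and 23.4 CPM in the parental libraries (log2 fold change 0.69, SE 0.14, adjusted p = 0.0134), a call lost without any 1 knockout library (adjusted p at most 0.0606). ZNF10, described above, was the other. ZNF274, which recruits SETDB1 to the arrays of zinc finger genes, had 25.3, 25.8 and 30.8 CPM in the knockout libraries, against 21.7, 24.4 and 18.8 CPM in the parental libraries (log2 fold change 0.33, adjusted p = 0.142) and is named after its values were seen; without parental replicate 3 its log2 fold change was 0.20 and did not pass.

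ZNF185 aside, the ZNF genes with the highest levels did not pass the test. By the mean over the 6 libraries per kilobase of exon, ZNF146 led, with 44.8 CPM per kilobase in the knockout and 39.3 in the parental group, followed by ZNF664 with 37.0 and 38.1. ZNF146 (chromosome 19, 36214602 to 36238774, plus strand), a protein made almost only of fingers, had 192, 189.8 and 176 CPM in the knockout libraries, against 180.1, 168 and 141 CPM in the parental libraries (log2 fold change 0.19, adjusted p = 0.317, 95% interval -0.11 to 0.48), or 0.04 without parental replicate 3, which did not pass either. ZNF664 (chromosome 12, 123971845 to 124015439, plus strand), whose mean of 238.5 CPM was the highest of the 269, had 239, 236 and 228 CPM in the knockout libraries, against 275, 270.5 and 178 CPM in the parental libraries (log2 fold change -0.04, adjusted p = 0.889, 95% interval -0.48 to 0.40). In ZNF664 parental replicate 3 lay below and the other parental libraries above the knockout, and without that library the gene passed, at -0.27. The intervals do not exclude changes of up to about the size of their bounds.

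Genes with the KRAB pattern and genes without it can be set side by side. With the pattern, 22 of 127 rose (17.3%) and 7 fell (5.51%), with a median of 0.26. Without it, 19 of 138 rose (13.8%) and 12 fell (8.7%), with a median of 0.10. In the fit without parental replicate 3, 39 rose and 33 fell with the pattern, with a median of 0.11, and 38 rose and 43 fell without it, with a median of -0.02. The summed level of the 127 KRAB genes was 2312, 2333 and 2314 CPM in the knockout libraries, against 2206, 2209 and 1718 CPM in the parental libraries. Here all knockout libraries lay above all parental ones, which was not so for the genes without the pattern, at 5100.0, 5097 and 5033 CPM in the knockout libraries against 5473, 5304 and 4433 CPM in the parental libraries. By number of fingers, 7 of 50 genes with 0 to 4 fingers rose and 6 fell (median -0.06), 11 of 88 with 5 to 9 fingers rose and 4 fell (0.14), 16 of 80 with 10 to 14 fingers rose and 7 fell (0.22), and 7 of 47 with 15 or more rose and 2 fell (0.19). In the same order, the counts without parental replicate 3 were 13 rising and 16 falling (median -0.07), 29 and 23 (0.07), 24 and 25 (0.07), and 11 and 12 (-0.0013). The excess of rising genes among those with 10 or more fingers was thus absent without that library.

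On chromosome 19, 18 of 84 ZNF genes rose (21.4%) and 5 fell (5.95%), and on the other chromosomes 23 of 185 rose (12.4%) and 14 fell (7.57%). Without parental replicate 3 the order of the rising shares turned round, with 22 of the 84 rising (26.2%) and 19 falling (22.6%), against 56 of the 185 rising (30.3%) and 58 falling (31.4%). Among the KRAB genes of chromosome 19, 14 of 55 rose (25.5%) and 3 fell (5.45%), with a median of 0.27. KRAB genes elsewhere had 8 of 72 rising (11.1%) and 4 falling (5.56%), with a median of 0.18. These shares drew together without parental replicate 3, when 16 of the 55 rose (29.1%) and 13 fell (23.6%), against 23 (31.9%) and 20 (27.8%) of the 72. Chromosome 3, singled out after its share was seen, had 5 of 11 rising and 0 falling by edgeR's test, 7 rising and 1 falling at an unadjusted p under 0.05 and by DESeq2, and 6 rising and 0 falling by limma-voom. With parental replicate 3 left out, 7 rose and 1 fell. Of the 9 further chromosomes with at least 8 of the genes, the rising share ran from 1 of 20 on chromosome 7 to 3 of 13 on chromosome 10. Chromosome 3's rising genes were ZNF589 (0.81), ZNF445 (0.69), ZNF619 (0.66), ZNF35 (0.56) and ZNF197 (0.51), with log2 fold changes in brackets. Each of these 5 calls was lost in at least 1 of the fits that left out a knockout library.

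**Figure D4:**
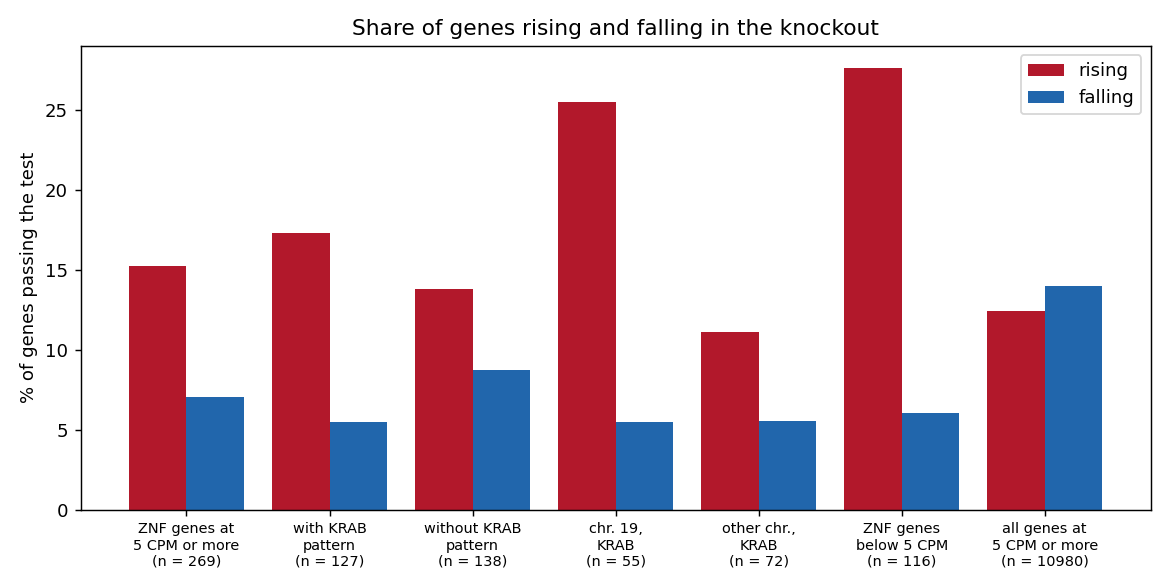
Share of genes, in % of the genes tested, that rose and that fell in the knockout, for the 269 ZNF genes, their subgroups by KRAB pattern and chromosome, the 116 tested ZNF genes below the threshold and all tested genes at 5 CPM or more. KRAB genes of chromosome 19 show 25.5% rising and 5.45% falling, and all genes at 5 CPM or more show 12.4% and 14%.

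Along the genome, ZNF genes no more than 500000 bases from the next were joined, which gave 17 groups of at least 4 genes with 117 of the 269 genes. Of these groups, 9 held rising genes and no falling one, 2 held falling genes and no rising one, 6 held neither, and 0 held both. Without parental replicate 3, 5 held rising genes alone, 3 held falling genes alone, 1 held neither and 8 held both. The 9 groups of chromosome 19 held 68 genes, of which 16 rose (23.5%) and 1 fell, against 19 rising (27.9%) and 12 falling (17.6%) without that library. ZNF431, ZNF714, ZNF114 and ZNF296, which also fell on this chromosome with all 6 libraries, lay in none of these groups. The neighbours ZNF431 and ZNF714 were left out by the minimum of 4 genes, so the low number of falls within groups depends on that minimum. With all 6 libraries the falling groups were that of ZNF525 and one near the short-arm end of chromosome 4, where ZNF718 had 8.29, 8.57 and 7.83 CPM in the knockout libraries, against 12.8, 11.8 and 11.2 CPM in the parental libraries (log2 fold change -0.54, adjusted p = 0.0207) and ZNF721 had 32.6, 31.9 and 30.4 CPM in the knockout libraries, against 41.2, 38.6 and 39.2 CPM in the parental libraries (log2 fold change -0.33, adjusted p = 0.0423). Both chromosome 4 calls were lost without any 1 library other than parental replicate 3 (adjusted p at most 0.0988 and 0.176), and 25.8% of the exon bases of ZNF721 are shared with another gene. On chromosome 10, ZNF37A had 93.6, 95.03 and 84.9 CPM in the knockout libraries, against 58.5, 51.9 and 43.6 CPM in the parental libraries (log2 fold change 0.83, SE 0.13, adjusted p = 0.00600) and ZNF25 had 11.8, 12.4 and 10.6 CPM in the knockout libraries, against 6.81, 6.36 and 5.84 CPM in the parental libraries (log2 fold change 0.87, SE 0.13, adjusted p = 0.00485), both in a group of 4 with 2 further genes that did not pass; 1 of these, ZNF33A, fell without parental replicate 3.

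In the group at 34677639 to 34964049 on chromosome 19, all 4 genes rose. This group was singled out after its values were seen. ZNF302 (chromosome 19, 34677639 to 34686397, plus strand) had 15.3, 16.6 and 15.9 CPM in the knockout libraries, against 10.5, 10.1 and 5.93 CPM in the parental libraries (log2 fold change 0.85, SE 0.23, adjusted p = 0.0403). ZNF181 (chromosome 19, 34734155 to 34745378, plus strand), whose promoter resembles that of ZNF302, had 18.6, 17.9 and 17.1 CPM in the knockout libraries, against 10.7, 11.1 and 7.32 CPM in the parental libraries (log2 fold change 0.88, SE 0.18, adjusted p = 0.0154). ZNF30 (chromosome 19, 34926903 to 34945170, plus strand) had 11.3, 11.8 and 10.8 CPM in the knockout libraries, against 7.37, 5.59 and 7.42 CPM in the parental libraries (log2 fold change 0.74, SE 0.16, adjusted p = 0.0159). Every knockout library lay above every parental one in each of the 3. ZNF792 (chromosome 19, 34956354 to 34964049, minus strand), at the far end of the group, had 9.10, 8.73 and 8.50 CPM in the knockout libraries, against 3.96, 3.67 and 2.90 CPM in the parental libraries (log2 fold change 1.32, SE 0.16, adjusted p = 0.00210). The calls of ZNF302, ZNF181 and ZNF30 were lost in fits that left out a knockout library (adjusted p at most 0.127, 0.0668 and 0.0811), while that of ZNF792 held in all of them. The call of ZNF302 was also lost with RLE factors, without the low-count filter, with replicate number as a block, and without parental replicate 1 or 2. In contrast, without parental replicate 3 all 4 passed, at 0.58, 0.67, 0.76 and 1.16. ZNF302 and ZNF181 are close relatives, so reads that fit both may have been split or dropped.

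The genes beside this group also stood higher in the knockout. Of 11 other tested genes within 100000 bases, 6 rose and 0 fell by edgeR's test, and all 11 had a positive log2 fold change. Several of these genes stood at low levels. Among those that rose, LINC01801, AC008555.7, AC008555.4 and HPN had knockout means of 0.971, 0.536, 1.305 and 0.528 CPM. Their parental means were lower still, and a gene high in 1 group can pass the low-count filter through that group. In the fit without parental replicate 3, 8 rose, 0 fell and 10 were positive. At an unadjusted p under 0.05, 8 rose and 0 fell, and DESeq2 called 7 rising and limma-voom 6, each with 0 falling. Within 500000 bases the balance was more even, with 7 of 23 rising, 5 falling and 14 positive. Next to ZNF792, GRAMD1A, which codes for a sterol carrier, had 320.2, 314 and 346 CPM in the knockout libraries, against 31.6, 34.1 and 11.2 CPM in the parental libraries (log2 fold change 3.67, SE 0.44, adjusted p = 0.00189). HPN, the serine protease hepsin, had 21, 33 and 37 reads in knockout replicates 1 to 3 and 0 reads in all 3 parental libraries. These neighbours are named after their values were seen, and the log2 fold change of GRAMD1A was far larger than those of the ZNF genes beside it. In or within 100000 bases of all 9 chromosome 19 groups, 43 of 152 other tested genes rose (28.3%) and 3 fell, and within 500000 bases 62 of 286 rose (21.7%) and 23 fell. Of the 152, 26 of 60 with a zinc finger symbol rose and 0 fell (35 and 0 at an unadjusted p under 0.05, 30 and 0 by DESeq2, 26 and 0 by limma-voom), and 17 of 92 with another symbol rose (18.5%) and 3 fell. The numbered ZNF genes among the 60 are by construction below the 5 CPM threshold, and they recur in the count of such genes below. Like the other genes of the 152, they passed a low-count filter that a gene high in 1 group can pass through that group. Elsewhere on chromosome 19, 112 of 869 rose (12.9%) and 114 fell, but these genes were not matched to the others for level. Without parental replicate 3, 36 of 61 with a zinc finger symbol rose and 3 fell, 38 of 95 with another symbol rose and 10 fell, and 273 of 901 genes elsewhere on chromosome 19 rose and 246 fell.

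**Figure D5:**
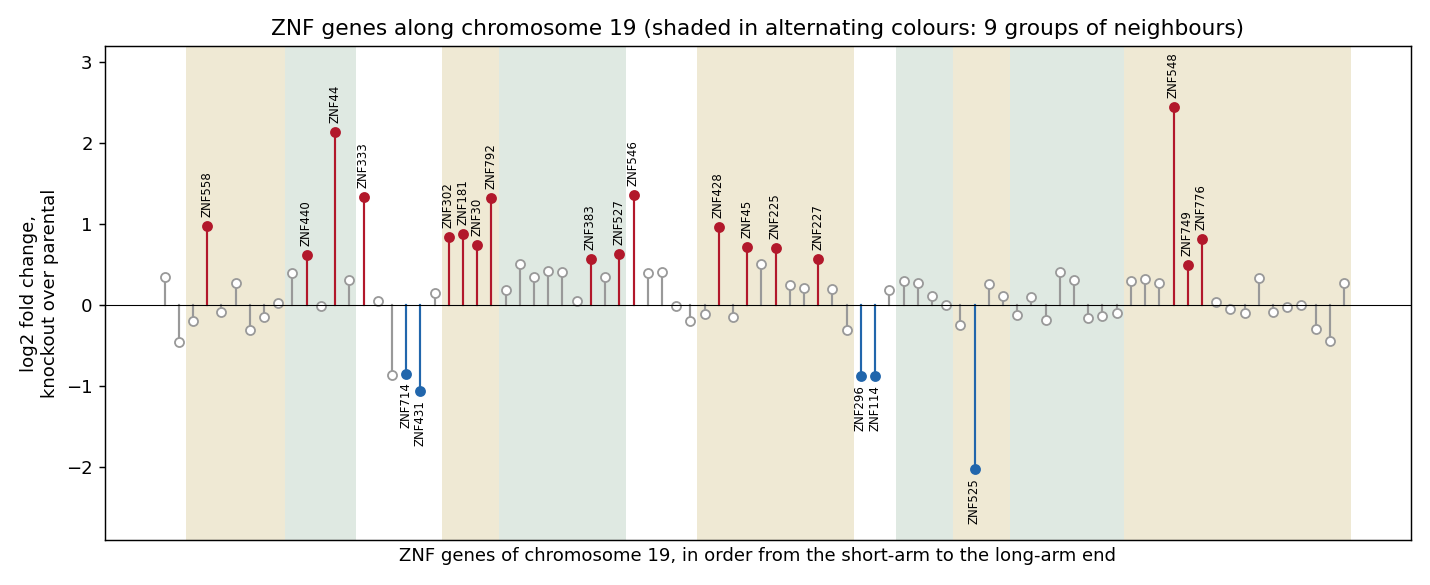
Log2 fold change of knockout over parental for the 84 ZNF genes of chromosome 19 in their order along it, with filled red points for genes that rose, filled blue points for genes that fell and open points for genes that did not pass. Shading marks the 9 groups of at least 4 neighbours, with ZNF302, ZNF181, ZNF30 and ZNF792 rising side by side and ZNF525 falling alone in its group.

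The ZNF genes below the threshold were tested in the same fit. Of 116 such genes, 32 rose (27.6%) and 7 fell (6.03%), with a median of 0.35, against 13.3% and 14.3% of all genes tested; without parental replicate 3, 43 rose (37.1%) and 14 fell (12.1%). These passed a filter on low counts that a gene high in 1 group can pass through that group. Zinc finger proteins of other families were also counted. Of 63 ZBTB, ZSCAN, ZKSCAN and ZFP genes at 5 CPM or more, 8 rose (12.7%) and 4 fell (6.35%), with a median of 0.21; without parental replicate 3, 23 rose and 18 fell. ZBTB12 had 6.91, 6.46 and 7.07 CPM in the knockout libraries, against 3.92, 3.33 and 2.96 CPM in the parental libraries (log2 fold change 1.00, SE 0.16, adjusted p = 0.00578), and ZKSCAN3, a repressor of autophagy genes, had 10.7, 10.8 and 11.01 CPM in the knockout libraries, against 6.22, 6.35 and 5.68 CPM in the parental libraries (log2 fold change 0.83, SE 0.12, adjusted p = 0.00384). ZBTB18, a repressor needed for brain development, had 4.42, 5.30 and 5.20 CPM in the knockout libraries, against 10.95, 10.9 and 11.3 CPM in the parental libraries (log2 fold change -1.15, SE 0.13, adjusted p = 0.00162). ZFP36, whose CCCH fingers bind AU-rich messenger RNA and not DNA, had 27.5, 29.04 and 30.1 CPM in the knockout libraries, against 60.96, 62.8 and 57.4 CPM in the parental libraries (log2 fold change -1.06, SE 0.09, adjusted p = 0.000563).

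The corepressors through which KRAB proteins act were measured in the same libraries. They were counted together with partners of other ZNF proteins, such as ZMYND8, UHRF2 and CTBP2, so the counts are not of KRAB corepressors alone. Of 34 tested partner genes, 2 rose (5.88%) and 5 fell (14.7%), with a median of -0.25. Of all tested genes at 5 CPM or more, 12.4% rose and 14% fell. Without parental replicate 3, 6 of the partner genes rose (17.6%) and 15 fell (44.1%), against 34.8% and 35.8% of genes at 5 CPM or more. TRIM28 (chromosome 19, 58544091 to 58550722, plus strand), the scaffold that KRAB domains bind, had 455, 437 and 439 CPM in the knockout libraries, against 457, 443 and 856 CPM in the parental libraries (log2 fold change -0.40, adjusted p = 0.333, 95% interval -1.06 to 0.26). Parental replicates 1 and 2 lay within the range of the knockout libraries or just above it, and parental replicate 3 stood far above; without it the log2 fold change was -0.07. SETDB1 (chromosome 1, 150926263 to 150964744, plus strand), the methyltransferase that TRIM28 recruits, had 89.1, 87.5 and 90.6 CPM in the knockout libraries, against 64.9, 66.3 and 74.8 CPM in the parental libraries (log2 fold change 0.37, SE 0.10, adjusted p = 0.0317), a call lost without any 1 library other than parental replicate 3 and without the low-count filter (adjusted p at most 0.142). ATF7IP, which stabilises SETDB1, had 46.1, 48.1 and 41.4 CPM in the knockout libraries, against 75.1, 69.8 and 62.6 CPM in the parental libraries (log2 fold change -0.61, SE 0.11, adjusted p = 0.00977), a call lost without knockout replicate 1 or 3 (adjusted p at most 0.0559). CHD4, the ATPase of the NuRD complex, had 11.2, 11.02 and 11.01 CPM in the knockout libraries, against 16.2, 17.2 and 18.6 CPM in the parental libraries (log2 fold change -0.65, SE 0.11, adjusted p = 0.00720), with 53.5% of its exon bases shared with another gene, and its call was lost without knockout replicate 2 (adjusted p = 0.0546). With all 6 libraries the share of partner genes that fell was thus near the background, and the share that rose was below it. These differences were not tested. TRIM28 and the ZNF genes also differed in parental replicate 3, where TRIM28 was highest and the summed ZNF level lowest of the 6 libraries.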

How the data were processed

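RNA-seq was deposited as raw read counts per gene symbol, 1 file of 59050 symbols per library. The counts were made by the authors with TopHat2 2.1.1 and HTSeq 0.11.0 on hg38, per the submitters' processing notes. The sources used here do not give the annotation release, the strand setting or any filter. The library kit named in the labels' protocols does not mark strand. The libraries held 55120937 to 59917980 gene reads. Unassigned reads, listed in 5 classes (13.8% to 15.3% of a file), stayed out of library sizes and tests.

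The main test was the robust, two-sided quasi-likelihood test of edgeR 4.0.16 in R 4.3.3, after filterByExpr and TMM scaling, with group alone in the model. Benjamini-Hochberg adjustment ran over 17809 genes and the threshold was 0.05. Standard errors (SE) come from the F value and the log2 fold change. All 269 ZNF genes passed the filter. Positions, exon lengths and translated proteins are from GENCODE 29 (GRCh38, hg38), matched by symbol for 268 genes and by gene ID for 1 (ZNF875); 133 share some exon bases with another gene and 24 share over 25%. Promoters are from RefSeq.

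The 269 genes, the lists and the rules were chosen with earlier results of these data known. Named genes were SMARCA4, the 12 largest rises and 12 largest falls that passed without overlap, up to 2 per role list, the 3 highest per kilobase, the 3 most abundant that did not pass, those at the threshold, TRIM28, SETDB1 and up to 4 partners, and up to 4 of other families. Further genes were named after their values were seen, and some are marked so where they are described. ZNF302, ZNF181, ZNF30, ZNF37A, ZNF25, ZNF718, ZNF721 and ZNF469 are of this kind too. Alternatives tried were upper-quartile or RLE factors, a filter of 1 CPM in 3 libraries or none, DESeq2 1.42.0, limma-voom (limma 3.58.1), a replicate block, leaving out each library, and other membership thresholds.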

Additional observations from a re-analysis of the deposited data

How the results depend on the processing

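SMARCA4 stayed between -3.72 and -3.41 on the log2 scale in all 13 alternatives. The count of 41 rising ZNF genes became 26 without the low-count filter, 18 with the replicate block, 24 of 199 at a mean of at least 10 CPM, and 17 to 78 when 1 library was left out. The 19 falling became 31 by DESeq2, 10 with the replicate block and 6 to 77 when 1 library was left out. In each case the high end came without parental replicate 3; the cause was not tested. The 2 rising partner genes became 1 without the filter, 1 with the block and 1 to 6 with 1 library left out. The 5 falling partner genes became 8 by DESeq2, 2 with the block and 2 to 15. The 8 rising genes of other families became 4 without the filter, 5 with the block and 2 to 23, and the 4 falling 3 to 18. The other counts stayed within 1.5 times. Of the 60 called ZNF genes, 21 passed in all 13 alternatives (15 rising, 6 falling), 28 with the block, and 0 changed sign. The block ended, among others, the calls of ZNF30, ZNF114, ZNF296, ZNF302, ZNF362, ZNF395, ZNF598, ZNF618, ZNF687, ZNF711, ZNF718 and ZNF721. Those of ZNF618 and ZNF721 were also lost without the low-count filter. The replicate numbers do not pair the libraries: deviations of same-numbered libraries correlated at -0.05, -4.24e-05 and -0.07, and no knockout library correlated best with its own number. The scaling moved the median of all genes from 0.02 to between -0.03 and 0.07. Depth limits low values such as ZNF462 in the knockout, which rests on 32 to 43 reads per library.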

Other observations

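Several ZNF genes that did not pass had large log2 fold changes, and they were picked out with their values in view. Above 0, ZNF219, ZNF449 and ZNF621 had the largest log2 fold changes, at 0.89, 0.85 and 0.80 (adjusted p = 0.0550, 0.116 and 0.0505). Their groups did not overlap, and without parental replicate 3 all 3 passed with smaller log2 fold changes, at 0.58, 0.49 and 0.52. ZNF621 had 69.02, 74.6 and 71.2 CPM in the knockout libraries, against 48.4, 48.4 and 26.8 CPM in the parental libraries. ZNF449 had 13.7, 14.8 and 14.9 CPM in the knockout libraries, against 10.03, 9.95 and 4.17 CPM in the parental libraries. Below 0, ZNF430, which lies beside ZNF714 and ZNF431 in the short-arm array of chromosome 19, had 4.47, 3.87 and 4.01 CPM in the knockout libraries, against 8.67, 8.96 and 4.77 CPM in the parental libraries (log2 fold change -0.86, adjusted p = 0.0575). ZNF292, a tumour suppressor candidate, had 23.2, 23.1 and 20.5 CPM in the knockout libraries, against 45.9, 44.9 and 23.8 CPM in the parental libraries (log2 fold change -0.78, adjusted p = 0.0722). ZNF430 and ZNF292 both passed without parental replicate 3, at -1.15 and -1.08. ZNF367 had 6.63, 5.97 and 6.08 CPM in the knockout libraries, against 6.69, 5.12 and 18.4 CPM in the parental libraries (log2 fold change -0.69, adjusted p = 0.340), with parental replicate 3 far above the other 5 libraries; without it the log2 fold change was 0.03 and did not pass.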
